A study of Mus musculus with 24 samples.

Results

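The comparison described here set 4 liver libraries of ΔRRE mice against 4 of wild-type (WT) mice at CT22 and CT2, the 2 sampled hours of circadian time (CT) at which the *Bmal1* mRNA of WT liver was highest. The libraries were chosen by genotype and time point as given in their titles, 2 per genotype and hour, and make up 8 of the 24 libraries of the series. The other 16 were collected at CT6, CT10, CT14 and CT18 and enter only where the difference between these hours and the rest of the cycle was tested. All mice were adult males of the C57BL/6 strain. Per the study's methods, the ΔRRE mice were homozygous for a CRISPR-Cas9 deletion of both RREs in the 5′-UTR of *Bmal1*, made by electroporation of embryos at the pronuclear stage, and the controls were WT. The labels give no age of single mice, and nothing in the labels of single libraries says that each came from a different animal, so that the p-values measure the spread between libraries.

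The mammalian clock is a feedback loop in which CLOCK and BMAL1 activate genes through the E-box, among them the *Per* and *Cry* genes, whose proteins then repress the pair. REV-ERB proteins, themselves E-box targets, repress and ROR proteins activate genes through another element, the RRE, and *Bmal1* is the best known RRE gene. In liver this clock times much of the switching between fed and fasted metabolism, for example gluconeogenesis, fat synthesis and bile acid synthesis.

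The elements that distinguish the genotypes lie in exon 1 of *Arntl*, the symbol under which the files list *Bmal1* (chr7:113207465-113314126, plus strand, GRCm38). A search of this exon (chr7:113207465-113207644) in the GENCODE M21 transcript for the RRE consensus, allowing 1 mismatch, found 2 sites, both in the 5′-UTR. They are shown because their loss defines the ΔRRE group, with the 11 bases of the element in capitals and 5 bases of flank on each side.
Site 1, chr7:113207501-113207511: gtcggAAAGTAGGTTAgtggt
Site 2, chr7:113207537-113207547: ggcagAAAGTAGGTCAgggac
The elements are 25 bases apart and differ by 1 base, written C10T with positions counted from 1 at the 5′ end of the element and site 2 taken as the reference. Site 2 matches the consensus at every position. In the RefSeq table of promoters (GRCm38.p6, 250 bases before to 50 after each start), 0.384% of 32851 windows held the full consensus on either strand.

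Poly(A)-tailed RNA was measured as FPKM, the number of sequenced fragments scaled by transcript length and by library size. The values of the 8 libraries summed to between 562202 and 595474 FPKM, and the scaling factors computed from median ratios ran from 0.957 to 1.08. Relative depth, read from the smallest steps of the values, ranged from 0.688 to 1 of the deepest library, while absolute depth is unknown. The correlation between libraries, across genes, was 0.967 to 0.972 within groups and 0.961 to 0.977 between groups, so that libraries of 1 group were no more alike than others. *Alb*, the albumin gene that defines hepatocytes, stood at 24313 to 30814 FPKM, whereas 5 of 6 pancreas acinar markers and 4 of 5 skeletal muscle markers were listed at 0 in all 8 libraries.

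The tables list 54733 genes, and the 11244 that averaged 1 FPKM or more across the 24 libraries were compared with limma on log2(FPKM + 0.1), with the time point as a term. A gene was called at a Benjamini-Hochberg adjusted p under 0.05. *Arntl*, for whose WT peak the hours were chosen, fell and *Lrrc8d* rose in ΔRRE. These 2 genes, 0.0178% of those tested with 0.00889% in each direction, were the only ones called in this fit. *Arntl* was called again when any 1 of the 8 libraries was left out. Beside it, *Bola1* and *Lrrc8d* were called without the first WT library of CT22, *Mid1ip1* without the second, *Angptl4* without the second ΔRRE library of CT2, *Lrrc8d* without the first, and no gene without either WT library of CT2 or either ΔRRE library of CT22. At an unadjusted p under 0.05, 398 genes (3.54%) were higher and 205 (1.82%) were lower, together 5.36%. This balance moved with the scaling of the libraries, to 292 higher (2.6%) and 275 lower (2.45%) after division by median ratios. Both ΔRRE libraries exceeded both WT libraries at both hours for 482 genes (4.29%) and lay below them for 202 (1.8%), together 6.08%. The median log2 fold change over all genes tested was 0.04, with 59.7% above 0, and 57 genes (0.507%) were above 1 and 36 (0.32%) below -1. Fewer cells of a type and less RNA per cell cannot be told apart in these values, which come from whole liver.

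*Bmal1* is the gene with the deleted elements, though values per gene cannot show the deletion itself. The hours were chosen for its peak in WT, so a low ΔRRE level relative to WT is in part a matter of that choice. The p-values, interval and calls given for *Arntl* rest on the same choice and are no independent test. *Arntl* stood at 10.3 and 11.2 FPKM in the WT libraries of CT22 and at 12.6 and 13.2 FPKM in those of CT2. In ΔRRE it stood at 3.83 and 3.29 FPKM at CT22 and at 3.58 and 3.16 FPKM at CT2. Every ΔRRE library thus lay far below every WT library, and the WT mean over both hours was 11.8 ± 1.33 FPKM and the ΔRRE mean 3.46 ± 0.301 FPKM (SD, 4 libraries each). The log2 fold change was -1.74 ± 0.12 (SE), a level of 0.299 of WT on the scale with 0.1 FPKM added, with a 95% interval from -2.02 to -1.47 (limma adjusted p = 0.00189). The difference was -1.57 at CT22 (adjusted p = 0.0579) and -1.91 at CT2 (adjusted p = 0.0262), and these did not differ detectably from each other (unadjusted p = 0.178). A two-sided exact permutation test over the 36 divisions of the libraries within hours gave p = 0.0556, the smallest value this design allows.

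In the rest of the cycle the order of the genotypes was different at CT6, CT10 and CT14 but not at CT18. WT *Arntl* stood at 0.195 and 0.0919 FPKM at CT10, where ΔRRE stood at 2.50 and 2.1 FPKM, and at CT14 it stood at 2.21 and 1.15 FPKM against 2.59 and 2.49 FPKM in ΔRRE. At CT6 the ΔRRE libraries, at 3.01 and 4.21 FPKM, were above the WT libraries, at 2.42 and 2.86 FPKM. At CT18 the order was that of CT22, with 5.96 and 5.76 FPKM in WT and 2.70 and 3.24 FPKM in ΔRRE. Averaged over these 4 time points *Arntl* was higher in ΔRRE by 0.86 on the log2 scale, but this average rested on CT10, where the WT level was near the constant added before the logarithm, and it was 0.03 without CT10. The effect at CT22 and CT2 minus that at the other 4 time points was -2.60 ± 0.23, and -1.77 without CT10. Since the hours were chosen by WT *Arntl*, these values are a description and no p is given for them.

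**Figure D1:**
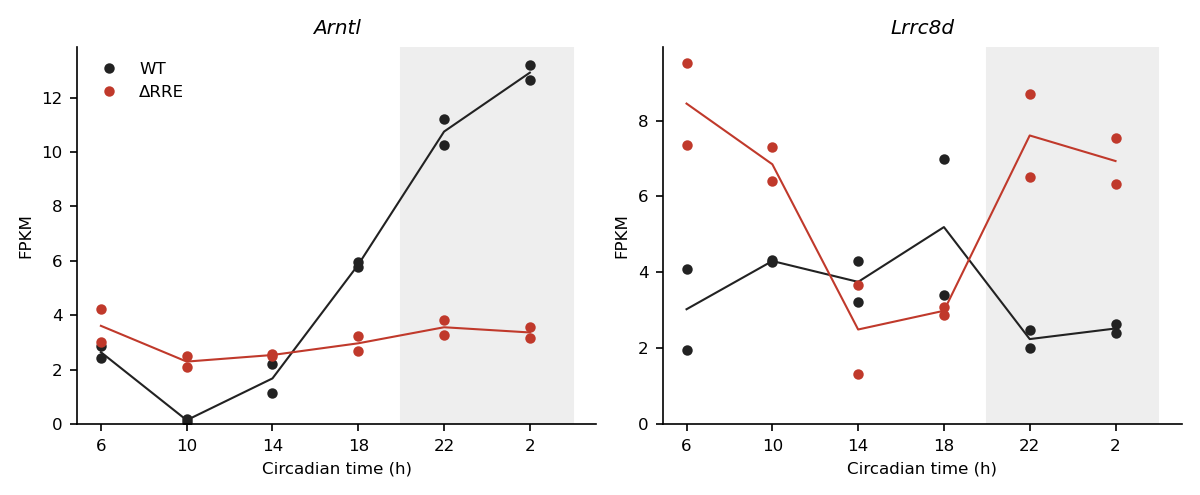
FPKM of *Arntl* (left) and *Lrrc8d* (right) against circadian time in h, with CT2 drawn after CT22; each point is 1 library, lines join the means of 2, and the grey band marks the hours compared. WT *Arntl* climbs to 13.2 FPKM within the band while ΔRRE stays between 3.16 and 3.83 FPKM there, and *Lrrc8d* is higher in all 4 ΔRRE libraries of the band.

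The partners of *Bmal1* showed no call. *Clock*, which encodes the protein that pairs with BMAL1, was measured at 5.33 to 8.45 FPKM in WT and 5.91 to 8.69 FPKM in ΔRRE, a log2 fold change of 0.06 ± 0.18. *Npas2*, a paralog that can stand in for *Clock*, differed by 0.32 ± 0.23, with ΔRRE libraries at both ends of the range, 3.42 and 7.41 FPKM, at CT2. The groups overlapped at both hours for *Clock* and at CT2 for *Npas2*, which at CT22 stood at 4.07 and 3.82 FPKM in WT and 4.41 and 6.24 FPKM in ΔRRE.

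Among the repressors, *Per1* and *Per2* went opposite ways without passing the test. *Per1* stood at 1.02 and 2.14 FPKM in WT and 3.74 and 1.88 FPKM in ΔRRE at CT22, and at 0.431 and 0.492 FPKM against 0.613 and 0.863 FPKM at CT2, a log2 fold change of 0.68 ± 0.32 (unadjusted p = 0.061). *Per2* stood at 4.90 and 4.59 FPKM in WT and 1.91 and 2.61 FPKM in ΔRRE at CT22, but at CT2 the WT values of 1.83 and 2.63 FPKM lay within the ΔRRE values of 1.02 and 2.91 FPKM. Its log2 fold change was -0.69 ± 0.32 (unadjusted p = 0.0583). Without the second ΔRRE library of CT2 it was -1.05, and without the first it was -0.48. *Ciart*, a repressor of CLOCK-BMAL1, was lower in both ΔRRE libraries at both hours, but at 0.0478 to 0.877 FPKM in all 8 libraries, near the constant added (-0.60 ± 0.48).

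*Cry1* and *Cry2*, the cryptochromes, each differed by 0.14 over both hours. *Cry1* rested on the hour more than on the genotype, with 16.4 and 16.3 FPKM at CT22 against 7.33 and 8.10 FPKM at CT2 in WT, and 14.2 and 18.5 FPKM against 6.63 and 13.6 FPKM in ΔRRE. *Cry2* was higher in ΔRRE at CT22, at 9.73 and 11.9 FPKM against 8.15 and 7.18 FPKM, and not at CT2, at 6.20 and 8.23 FPKM against 9.29 and 7.41 FPKM (unadjusted p of the difference between the hours = 0.0424, not called).

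The receptors that act on the RRE were no more decided. *Nr1d1*, which encodes REV-ERBα, was spread over 20.8 and 3.89 FPKM in WT and 12.4 and 2.81 FPKM in ΔRRE at CT2. The first library of each genotype at that hour was high and the second low, and *Nr1d2* (REV-ERBβ) showed the same split, with 8.40 and 3.27 FPKM in WT and 9.96 and 2.14 FPKM in ΔRRE. At such a spread the 95% interval of the *Nr1d1* effect ran from -1.47 to 1.14 on the log2 scale. *Rora* was steadier, at 6.07 to 8.06 FPKM in WT and 7.54 to 9.68 FPKM in ΔRRE (0.18 ± 0.13). *Rorb* was listed at 0 in all 8 libraries.

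The factors and outputs driven by the loop did not pass the test either. *Tef*, a D-box activator, stood at 14.0 and 18.2 FPKM in WT and 14.0 and 18.4 FPKM in ΔRRE at CT22, and at 6.39 to 8.40 FPKM in all libraries at CT2, so the hours were farther apart than the genotypes. *Dbp*, another D-box activator, was higher in ΔRRE at CT22 (1.72 and 2.18 FPKM against 0.873 and 1.34 FPKM). *Nfil3*, the D-box repressor and an RRE gene, stood at 27.0 and 31.3 FPKM in ΔRRE against 22.8 and 16.0 FPKM in WT at CT22 and was even at CT2 (27.3 to 27.8 FPKM in the 4 libraries; unadjusted p of the difference between the hours = 0.0407). *Wee1*, *Usp2*, *Nampt*, *Gys2* and *Bhlhe40* had log2 fold changes between -0.09 and 0.42, *Per3* of -0.19 and *Hlf* of -0.04. The *Gys2* interval was the narrowest of these, from -0.20 to 0.22. In all, 1 of the 21 clock genes tested, *Arntl*, was past an unadjusted p of 0.05 over both hours, against 5.36% of all genes. Of the 17 clock genes found among the RefSeq promoters, 4 (*Ciart*, *Cry1*, *Per1* and *Tef*) held the E-box CACGTG in at least 1 window. Of all windows 7.15% held it, a share per window that is not alike with a count of genes, since some genes have more than 1 window.

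**Figure D2:**
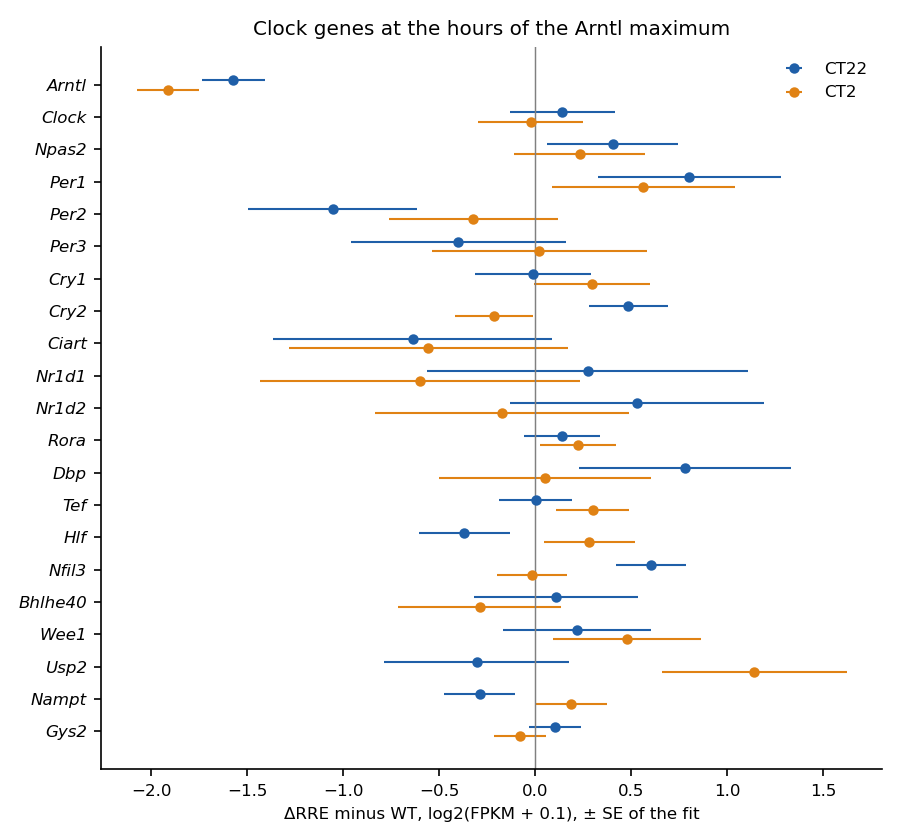
Difference ΔRRE minus WT in log2(FPKM + 0.1) for the 21 clock genes tested, at CT22 (blue) and CT2 (orange), with bars of ± 1 SE of the fit. *Arntl* stands alone at -1.57 and -1.91. It was called at CT2 only, and no other clock gene was called at either hour.

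*Lrrc8d*, a subunit of the volume-regulated anion channel (chr5:105699969-105832436, plus strand, GRCm38), was the gene called higher. It stood at 1.99 and 2.49 FPKM in WT against 6.52 and 8.69 FPKM in ΔRRE at CT22. At CT2 it stood at 2.65 and 2.39 FPKM against 6.33 and 7.54 FPKM. All 4 ΔRRE libraries were above all 4 WT libraries, by 1.57 ± 0.15 on the log2 scale or 2.96-fold (limma adjusted p = 0.0156, exact permutation p = 0.0556). The call was close to the threshold: it was lost with an adjusted p between 0.05609 and 0.104 without either WT library of CT2, without the second WT library of CT22, without the second ΔRRE library of CT2 or without either ΔRRE library of CT22. It was also lost without a filter on low values (adjusted p = 0.126) and with all 24 libraries in the fit (adjusted p = 0.294). Neither of these fits can change the fold change itself, 1.57, and its direction held in each fit without a single library.

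Outside these hours *Lrrc8d* did not keep 1 order. ΔRRE was higher at CT6 (9.53 and 7.37 FPKM against 1.96 and 4.09 FPKM) and CT10 (6.4 and 7.30 FPKM against 4.33 and 4.27 FPKM) but not at CT14 (3.68 and 1.31 FPKM against 3.21 and 4.29 FPKM) or CT18 (3.09 and 2.88 FPKM against 6.99 and 3.39 FPKM). The difference between CT22 and CT2 and the other time points was 1.37 (unadjusted p = 0.00125, exact permutation p = 0.0651) and was not called over all genes. *Lrrc8d* overlaps *Rps15a-ps5* and *Lrrc8dos* on the other strand, and whether the counting used strand is not given in the sources used here.

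The next genes by p are given as values, since none passed the adjusted test. *Pck1*, the enzyme that commits carbon to gluconeogenesis, stood at 372 and 394 FPKM in WT and 1067 and 930 FPKM in ΔRRE at CT22. At CT2 the values were 236 and 143 FPKM against 468 and 259 FPKM, so that the groups were apart at each hour but the lower ΔRRE library came within reach of WT (1.15 ± 0.22, unadjusted p = 0.000476, adjusted p = 0.911). *Pdia5*, a protein disulfide isomerase of the endoplasmic reticulum, was at 25.0 to 28.9 FPKM in WT and 34.3 to 39.3 FPKM in ΔRRE, a small difference with little spread (0.42 ± 0.08). *Slc39a14*, a zinc and iron importer, was at 21.9 to 29.0 FPKM in WT and 34.8 to 48.3 FPKM in ΔRRE.

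*Ctsf* and *Ctsh*, cysteine proteases of the lysosome, were both among the 10 genes of smallest p that were higher. *Ctsf* was at 8.55 to 9.52 FPKM in WT and 10.6 to 13.1 FPKM in ΔRRE, and *Ctsh* at 67.5 to 88.8 FPKM and 80.2 to 142 FPKM. *Paics*, an enzyme of purine synthesis, was at 49.9 to 57.0 FPKM against 62.3 to 92.7 FPKM. *Siae*, a sialic acid esterase, was higher by 0.49 ± 0.11 and the ribosomal pseudogene *Rps24-ps3*, whose reads may belong to its parent gene, by 1.17 ± 0.26. *Bola1*, a mitochondrial iron-sulfur cluster factor, took 1 of 2 levels: 13.1 to 14.7 FPKM in the 4 ΔRRE libraries and 12.6 FPKM in the first WT library of CT22, but 1.11 to 1.98 FPKM in the other 3 WT libraries. It overlaps *Gm15444* on the same strand, so that reads could be split between them. Its difference was 2.46 in all libraries, 3.20 without that 1 WT library and 2.15 without the second WT library of CT22. At the other time points *Bola1* was at 12.4 to 17.1 FPKM in ΔRRE and 1.46 to 15.6 FPKM in WT.

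On the lower side *Naa16*, a subunit of an N-terminal acetyltransferase (chr14:79325269-79390778, minus strand), came next after *Arntl*. It stood at 3.83 and 4.24 FPKM in WT and 1.12 and 0.931 FPKM in ΔRRE at CT22, and at 2.86 and 3.57 FPKM against 1.41 and 1.52 FPKM at CT2. The groups did not overlap, and the difference of -1.48 ± 0.21 had an unadjusted p of 5.48e-05 (adjusted p = 0.206). Pooled over the other time points, the values of the genotypes overlapped, at 0.943 to 3.63 FPKM in ΔRRE and 1.77 to 3.47 FPKM in WT. Such pooled ranges do not compare the genotypes hour by hour. *G6pdx*, the first enzyme of the pentose phosphate pathway, was at 2.44 to 3.74 FPKM in WT and 1.04 to 2.00 FPKM in ΔRRE (-1.14 ± 0.24). *Slc13a2*, a transporter of dicarboxylates and citrate, had a log2 fold change of -0.91 ± 0.21, and *Tuba1c*, an alpha tubulin, was at 41.5 to 46.3 FPKM against 25.3 to 38.6 FPKM.

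*Mup9* belongs to the major urinary proteins, a family of near-identical genes whose reads the counting may have divided, and it was at 317 to 363 FPKM in WT and 199 to 283 FPKM in ΔRRE. The remaining genes of the 10 of smallest p that were lower were *Gm10639*, *Gm15318*, *Gm4956* and *Gm11967*. *Gm15318* is antisense to *Tff1*, *Gm4956* is a pseudogene, and their log2 fold changes ran from -0.58 to -1.71 with *Gm10639* included.

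**Figure D3:**
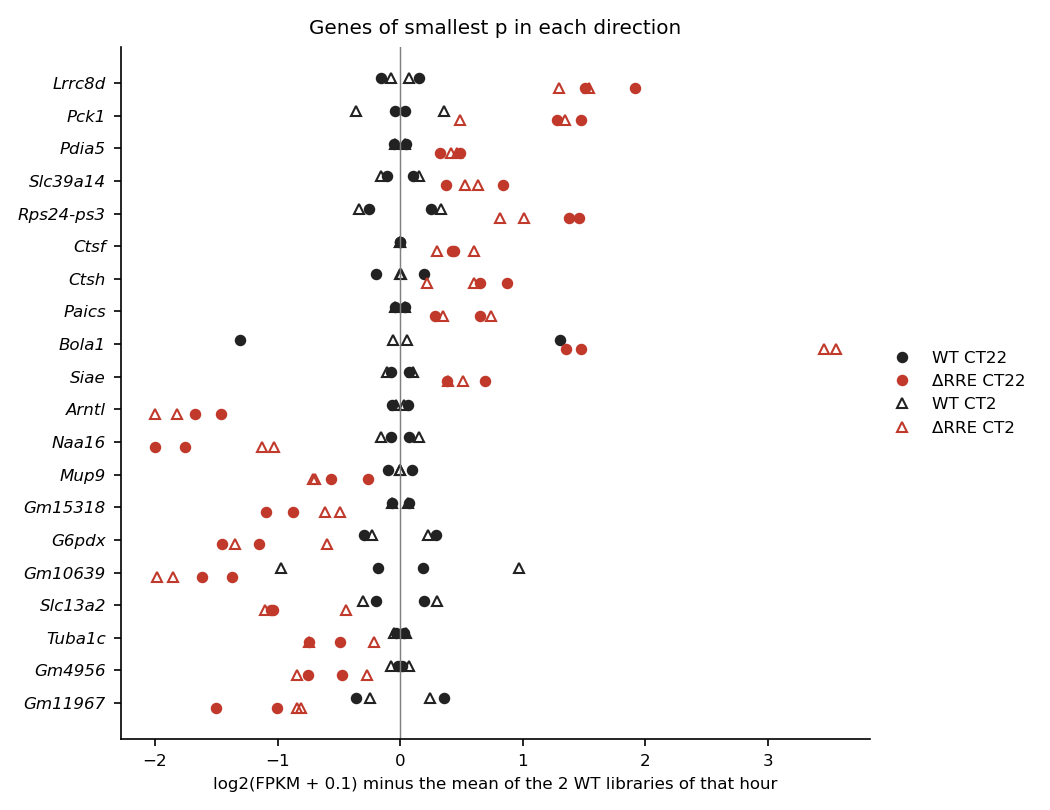
For the 10 genes of smallest p in each direction, log2(FPKM + 0.1) of each of the 8 libraries minus the mean of the 2 WT libraries of the same hour (WT black, ΔRRE red, circles CT22, triangles CT2). The genes were chosen for this separation; *Lrrc8d* and *Arntl* are the called ones, and in *Bola1* 1 WT library of CT22 sits among the ΔRRE libraries.

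Whether the genotypes differed by different amounts at CT22 and CT2 was tested as an interaction. No gene was called by limma, while 481 (4.28%) were past an unadjusted p of 0.05, 2.42% with a ΔRRE minus WT difference more positive at CT22 and 1.86% with one more positive at CT2. *Zfp260*, a zinc finger protein, and the lincRNA *Gm34654* had the smallest adjusted p, 0.0634. *Zfp260* stood at 5.67 and 5.79 FPKM in WT and 2.56 and 3.31 FPKM in ΔRRE at CT22, but at 1.45 and 1.16 FPKM in WT and 5.79 and 5.88 FPKM in ΔRRE at CT2, so the order of the genotypes was exchanged. Pooled over the other time points and not compared hour by hour, the genotypes overlapped, at 1.31 to 5.33 FPKM in WT and 1.48 to 5.19 FPKM in ΔRRE. Taken at single hours, the effect at CT2 was called for *Zfp260*, which rose (2.08, adjusted p = 0.0435), and *Arntl*, which fell, 0.00889% of genes in each direction. The effect at CT22 was called for 1 gene, *Pcmtd1*, which rose (0.00889%). At an unadjusted p under 0.05, 3.85% of genes were higher and 1.95% lower at CT22, together 5.8%, against 1.88% and 1.58% at CT2, together 3.46%. The summed markers of Kupffer cells, given at the end, were lower in ΔRRE at CT2. At CT22 their groups overlapped, at 28.6 and 87.1 FPKM in WT and 101 and 80.9 FPKM in ΔRRE.

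*Pcmtd1*, a protein related to isoaspartyl methyltransferases, was at 7.51 and 8.42 FPKM in WT and 24.9 and 25.5 FPKM in ΔRRE at CT22 (1.65 ± 0.14, adjusted p = 0.0322). At CT2 it was at 9.57 and 11 FPKM against 9.37 and 9.06 FPKM, so within these hours the high level was seen in the 2 libraries of 1 group. The same level was found elsewhere in single libraries of both genotypes, in WT at CT6 (26.6 FPKM), CT10 (25.0 FPKM) and CT14 (27.7 FPKM) and in ΔRRE at CT10 (26.8 FPKM), each beside a second library at 6.98 to 10.2 FPKM. It overlaps *Gm38372* on the same strand. *Gm34654* was at 1.46 and 0.952 FPKM in WT and 5.34 and 5.12 FPKM in ΔRRE at CT22, against 4.63 and 5.42 FPKM and 1.60 and 2.07 FPKM at CT2. *Gm22036*, a small RNA within *Slco1a1*, and *Fitm1*, a protein of fat storage, were likewise higher in ΔRRE at CT22 and lower at CT2. *Gm22036* lies on the same strand as *Slco1a1*, so that reads could be assigned to either. For *Fitm1* the values were 17.8 and 16.5 FPKM in WT and 29.3 and 26.2 FPKM in ΔRRE at CT22, and 28.9 and 33.3 FPKM against 9.63 and 14.4 FPKM at CT2.

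The comparison with the other 4 time points was made across all genes as well. *Arntl*, for whose WT peak the hours were chosen, and *Gm21981* were called (0.0178%), both in the lower direction, and 328 genes (2.92%) were past an unadjusted p of 0.05, 1.16% higher and 1.76% lower. *Gm21981* is a case apart, because at CT22 and CT2 the genotypes overlapped: WT stood at 9.33 to 12.3 FPKM and ΔRRE at 6.24 to 18.5 FPKM (-0.03 ± 0.23). Its call came from the WT libraries of CT14, which stood at 0.133 and 0.121 FPKM, when the other 22 libraries stood at 6.24 to 18.5 FPKM. Without CT14 the difference was -0.04 (adjusted p = 1), and the exact permutation test gave p = 0.142. It overlaps *Tomm6* and *Prickle4* on the same strand, so that reads could be assigned to either. *Tomm6*, a subunit of the mitochondrial import pore, had the opposite sign in the same test, 1.15 (unadjusted p = 0.00112, not called).

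*Zfp595*, *Sys1* and *Zc3hc1* had the next smallest p. On the same strand *Zfp595* overlaps *Gm28044* and *Sys1* overlaps *Gm20458*, so that reads could be split there too. *Zfp595* resembled *Gm21981*, with 0.00972 and 0.00299 FPKM in WT at CT18 against 1.10 to 2.24 FPKM in the other WT libraries. *Sys1*, a Golgi membrane protein, was at 9.38 to 11 FPKM in WT and 10.4 to 16.9 FPKM in ΔRRE at the hours compared. *Zc3hc1*, a protein of the nuclear pore basket, was at 4.15 to 5.13 FPKM in WT and 3.34 to 4.14 FPKM in ΔRRE there, and higher in ΔRRE elsewhere by 0.27.

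The lists of liver genes are described by how many members were past an unadjusted p of 0.05, named the unadjusted threshold below, to be read against the 3.54% higher and 1.82% lower among all genes. Counts of positive members are to be read against the 59.7% of all genes above 0, and counts of members without overlap against 4.29% higher and 1.8% lower. No member of any list other than *Arntl* was called over all genes. Of 8 gluconeogenic genes, 4 were higher at an unadjusted p under 0.05, *Pck1*, *G6pc*, *Fbp1* and *Got1*, and the median of the list was 0.29 against 0.04 over all genes. *Fbp1*, the fructose bisphosphatase, stood at 456 and 511 FPKM in WT and 598 and 651 FPKM in ΔRRE at CT22, and at 562 and 470 FPKM against 731 and 642 FPKM at CT2 (0.39 ± 0.09). *G6pc*, which releases free glucose, was at 146 and 87.8 FPKM against 206 and 235 FPKM at CT22, but at CT2 the ΔRRE values of 98.9 and 90.8 FPKM lay within the WT values of 109 and 62.4 FPKM. The median of the list over the other 4 time points was 0.49, so higher levels were seen there too, and none of the 8 was past the unadjusted threshold in the test against them. *G6pc* and *Got1* here, and the further members below that are not among the 2 of smallest p in a list, were named after their values were seen.

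Of 16 targets of PPARα, the receptor that turns on fat oxidation in fasting, 5 were higher and 14 had a positive log2 fold change, with a median of 0.23. The median was 0.44 at CT22 and 0.11 at CT2. An unadjusted interaction p under 0.05 by limma was found for 4 of the 16, against 4.28% of all genes. *Angptl4*, a secreted inhibitor of lipoprotein lipase, stood at 6.95 and 8.22 FPKM in WT and 29.8 and 32.1 FPKM in ΔRRE at CT22. At CT2 it stood at 4.72 and 5.75 FPKM in WT, at 23.8 FPKM in the first ΔRRE library and at 5.75 FPKM in the second. That second library was thus at the WT level. The difference, 1.59 ± 0.38 in all libraries, was 2.08 without it and 1.27 without the first ΔRRE library of CT2. *Cpt1a*, which admits fatty acids to mitochondria, was at 37.6 to 45.9 FPKM in WT and 46.2 to 65.0 FPKM in ΔRRE, with the same library lowest. *Plin2*, which coats lipid droplets, was at 136 and 124 FPKM against 186 and 221 FPKM at CT22, while at CT2 its groups overlapped, at 174 and 171 FPKM against 213 and 164 FPKM. *Hadha* and *Hadhb*, the trifunctional enzyme of fat oxidation, were higher by 0.23 each.

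Of 12 genes of fatty acid synthesis 3 were lower, *Srebf1*, *Thrsp* and *Fasn*. The median of the list was -0.09 over both hours, but 0.15 at CT22 and -0.38 at CT2. *Srebf1*, the transcription factor that drives fat synthesis, stood at 94.3 and 95.3 FPKM in WT and 48.9 and 43.9 FPKM in ΔRRE at CT22. At CT2 it stood at 108 and 98.6 FPKM in WT, and at 33.1 FPKM and 114 FPKM in ΔRRE. *Thrsp*, a lipogenic protein, showed the same split between the ΔRRE libraries of CT2, at 58.4 and 191 FPKM against 174 and 210 FPKM in WT. At CT22 it stood at 157 FPKM in both ΔRRE libraries against 238 and 230 FPKM in WT. Without the second ΔRRE library of CT2 the differences were -1.27 for *Srebf1* and -1.03 for *Thrsp*. Without the first they were -0.56 and -0.34, against -0.89 and -0.71 in all libraries. *Mid1ip1*, a regulator of acetyl-CoA carboxylase outside the list, was at 16.2 to 17.3 FPKM in all 4 ΔRRE libraries and at 35.6 to 41.8 FPKM in WT, save for the second WT library of CT22 at 15.6 FPKM. *Scd1*, *Acaca* and *Elovl6* differed by between -0.13 and 0.09.

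Of 10 genes of glucose uptake, glycolysis and glycogen, 7 had a positive log2 fold change, and the median was 0.05. *Ppp1r3b*, which directs glycogen synthesis, was at 89.0 and 118 FPKM in WT against 60.4 and 38.7 FPKM in ΔRRE at CT22. At CT2 its groups overlapped, with 49.0 and 100.3 FPKM against 48.7 and 83.2 FPKM. Food intake was not among the labels of the libraries, and its part in these values was not tested.

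**Figure D4:**
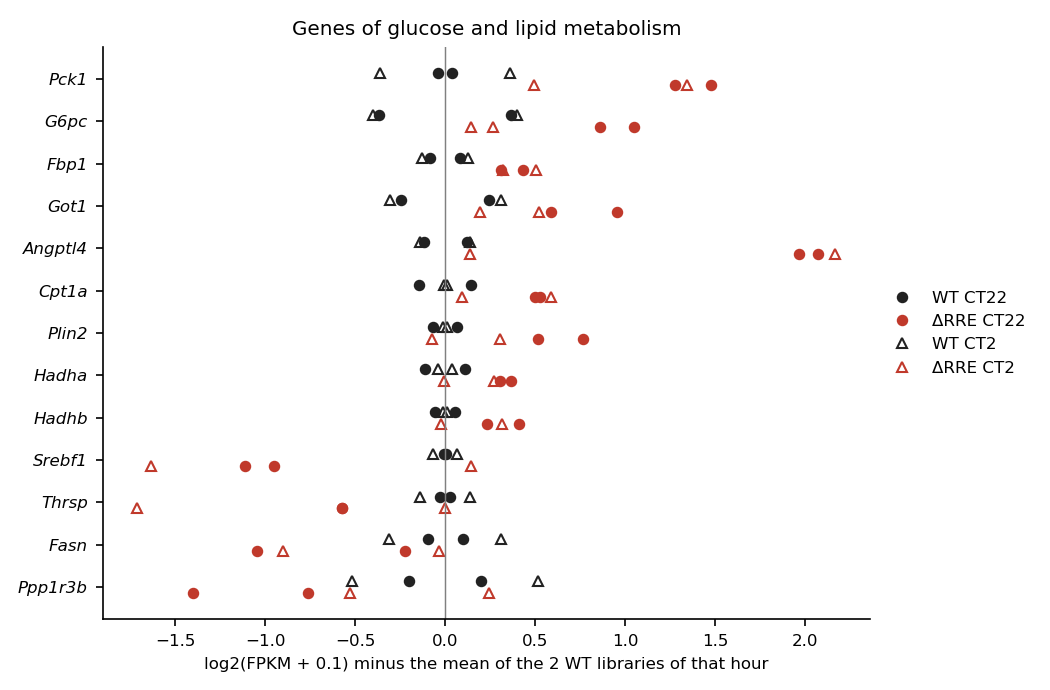
Log2(FPKM + 0.1) of each of the 8 libraries minus the mean of the 2 WT libraries of the same hour for genes of gluconeogenesis, fat oxidation, fat synthesis and glucose storage (WT black, ΔRRE red, circles CT22, triangles CT2). For *Angptl4*, *Srebf1* and *Thrsp*, 1 ΔRRE library of CT2 lies at or near the WT libraries and the other lies apart from them.

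Of 19 acute-phase genes 18 had a positive log2 fold change, against 59.7% of all genes, and 4 were higher past the unadjusted threshold: *Stat3*, *Itih3*, *Itih4* and *C3*. *Stat3*, the factor that relays interleukin-6, stood at 21.1 to 30.3 FPKM in WT and 31.1 to 40.4 FPKM in ΔRRE (0.50 ± 0.14). *Hp*, haptoglobin, was the exception of the list at -0.10, with 1 WT library of CT2 at 3434 FPKM. The list's median was 0.21 at these hours and 0.39 over the other 4 time points. Among 14 coagulation genes 1 was higher, *Plg* (plasminogen, 0.19 ± 0.08), and the median was 0.11. Among 14 interferon-response genes 2 were higher, *Usp18* and *Rsad2*, and 13 were positive, with the summed level of the list at 39.3 to 86.4 FPKM in WT and 50.9 to 95.7 FPKM in ΔRRE.

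No gene on the list of cytosolic ribosomal proteins was called. This list was read from gene symbols and includes *Rps4l* and *Rpl6l*, which are annotated as pseudogenes. Of 84 tested, 73 had a positive log2 fold change, against 59.7% of all genes, with a median of 0.11. Past the unadjusted threshold 6 were higher, and 9 were higher without overlap at either hour, against 4.29% of all genes. *Rpl7a* was at 199 to 236 FPKM in WT and 235 to 262 FPKM in ΔRRE. After division by median ratios the median of the list was 0.08. Of 77 mitochondrial ribosomal proteins 2 were higher, *Mrpl23* and *Mrps5*, and of 77 respiratory chain genes 1, *Atp5d*, with medians of 0.06 and 0.04. Of 37 proteasome genes 7 had a positive log2 fold change, against 59.7% of all genes, and the median was -0.07. None was lower past the unadjusted threshold, and *Psmd9* was higher past it. Without overlap at either hour 3 were lower, against 1.8% of all genes, and 0 were higher.

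In the remaining pathway lists at most 1 member was past the unadjusted threshold. Of 12 genes of bile acid synthesis and transport none was, and *Cyp8b1*, which sets the ratio of bile acids, differed most at 0.46 ± 0.24. Of 19 cholesterol genes none was, and the median was 0.05. Of 17 cytochrome P450 genes and their receptors *Cyp2a5* was lower (-0.64 ± 0.23), and *Cyp2b9* spread from 0.385 to 11 FPKM within WT. Of 10 glucocorticoid-responsive genes *Lpin1* was higher (0.38 ± 0.15), of 12 chaperones *Dnajb1* was lower (-0.47 ± 0.19), and of 6 cell cycle genes *Mcm2* was higher (0.62 ± 0.26). None was past it among 15 genes of the unfolded protein response, 12 of the growth hormone axis, 7 REV-ERB-repressed genes, 7 immediate-early genes or the cold-inducible *Cirbp* and *Rbm3*. Apart from the immediate-early genes, the medians of these lists ran from -0.01 (cytochrome P450) to 0.26 (cell cycle). The immediate-early genes had the list median farthest from 0, 0.55, but it was 1.03 at CT22 and -0.16 at CT2. Of the 7 members, 3 had an unadjusted interaction p under 0.05 by limma, against 4.28% of all genes. *Egr1*, the leading member of the list, ranged from 0.396 to 43.7 FPKM in WT and from 5.06 to 37.7 FPKM in ΔRRE.

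**Figure D5:**
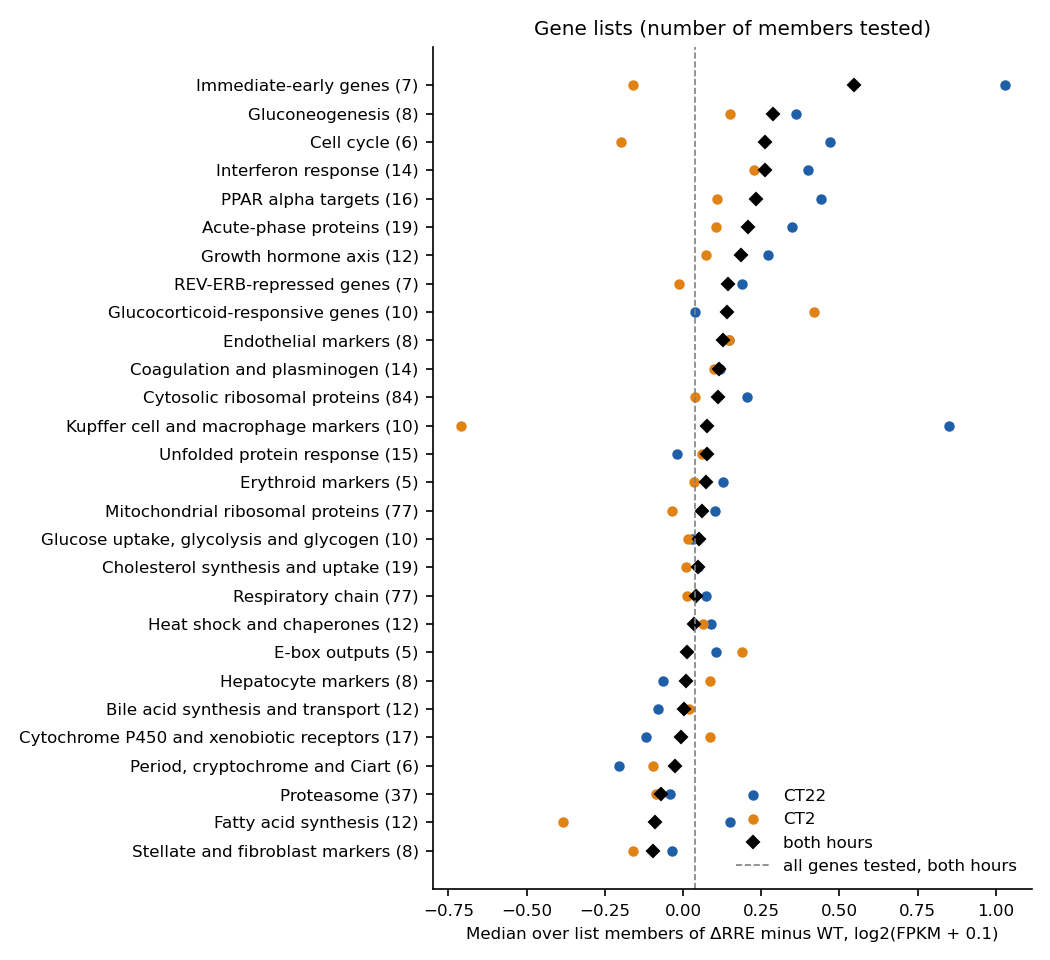
Median over the tested members of each list of the difference ΔRRE minus WT in log2(FPKM + 0.1), at CT22 (blue), at CT2 (orange) and over both hours (black), with the number of members tested in brackets and the median of all genes as a dashed line. Gluconeogenesis lies at 0.29 and fatty acid synthesis at -0.09 over both hours, and the Kupffer cell markers lie at 0.85 at CT22 and -0.71 at CT2.

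Among markers of the cells of liver, those of Kupffer cells took opposite signs at the hours compared, as did the medians of several other marker lists. None of 10 Kupffer cell and macrophage markers was past the unadjusted threshold over both hours, yet all 10 were higher in ΔRRE at CT22, with a median of 0.85, and lower at CT2, with a median of -0.71. An unadjusted interaction p under 0.05 was found for 4, *Clec4f*, *Cd5l*, *Adgre1* and *C1qc*, against 4.28% of all genes. Their sum was 28.6 and 87.1 FPKM in the WT libraries of CT22 and 86.0 and 152 FPKM in those of CT2, against 101 and 80.9 FPKM and 65.7 and 76.4 FPKM in ΔRRE. The first WT library of CT22 was the lowest and the second WT library of CT2 the highest of the 8. *Clec4f*, which defines Kupffer cells, was at 5.10 and 14.7 FPKM in WT and 15 and 14.8 FPKM in ΔRRE at CT22.

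No member of the hepatocyte, endothelial, stellate, biliary, lymphocyte, neutrophil, erythroid or pancreas acinar lists was past the unadjusted threshold over both hours. The medians of the first 3 were 0.01, 0.13 and -0.10 over 8 members each. Biliary markers had a median of -0.02 over 3 members and erythroid markers of 0.07 over 5. *Jchain* was the 1 lymphocyte marker tested (-0.39), *S100a9* the 1 neutrophil marker (0.89, at 0 to 2.86 FPKM in WT and 0.192 to 2.73 FPKM in ΔRRE) and *Cela1* the 1 acinar marker (-0.06). *Car3*, listed as an adipocyte marker but also made by hepatocytes, had a log2 fold change of -0.29 ± 0.11 and was past it, while *Adipoq*, *Retn* and *Plin1* were at 0. No skeletal muscle marker reached the level tested. The part that the makeup of the tissue plays in the results above was not tested.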

How the data were processed

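The authors prepared directional libraries from poly(A)-tailed liver RNA and deposited, per the labels, 1 table of FPKM per library without pooling replicates. The submitters' processing notes name Trimmomatic 0.39, HISAT2 2.1.0, StringTie 1.3.5 and the mm10 build. The use of strand in counting is not given in the sources used here. FPKM values are not counts, so no counting error is given.

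From the deposited FPKM, log2(FPKM + 0.1) was fitted with limma 3.58.1 (R 4.3.3, trended prior) for the 11244 genes that averaged 1 FPKM or more, with genotype and time point as terms. Separate fits gave the interaction of genotype and hour, and, over all 24 libraries, the difference from the other time points. The adjustment was by Benjamini-Hochberg over all genes tested. Single genes were also tested by exact two-sided permutation within time points. Positions are those of GENCODE M21, in which 54528 of 54733 gene identifiers were found.

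Genes were named from *Bmal1*, the clock genes, the 10 genes of smallest p in each direction (called genes first), the 5 of smallest p in each of the 2 other tests and the 2 members of smallest p in each direction of every other list. Other members that a list's count refers to were named after their values were seen. Results of some list members are not reported here. The libraries and gene lists were chosen with earlier results of these data known. The steps were tested on simulated data. Alternatives were other constants, filters, scalings, priors and sets of libraries, a replicate block, and a fit without the time point. Leaving out single time points was added after the data were seen.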

Additional observations from a re-analysis of the deposited data

Results flagged for a closer look

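The effect of genotype at CT22 and CT2 differed from that at the other 4 time points, by the test of the difference itself, for 2 genes. For *Arntl* the difference was -2.60 on the log2 scale, with ΔRRE below WT in 4 of 4 libraries at CT22 and CT2, but the hours were chosen for the peak of WT *Arntl*, so this is a description and no p is given. For *Gm21981* it was -1.47 (limma adjusted p = 0.0228), and it rested on both WT libraries of CT14, without which it was -0.04.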

How the results depend on the processing

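Filters, scalings and single libraries moved the counts. *Arntl* fell under every alternative in which it was tested, by -1.77 to -1.52 on the log2 scale. When single libraries were left out it fell by -1.82 to -1.67. It has a mean under 5 FPKM, so the filter at 5 FPKM gave no value. Other filters, priors, the replicate block, all 24 libraries and no time term cannot move its fold change, -1.74, so those values were fixed in advance. The hours were also chosen for the WT peak of *Arntl*. Its difference from the other time points ran from -3.20 to -1.77, and from -2.71 to -2.49 without single libraries. The number of called genes, 2, was 3 with no filter (*Arntl*, *Gm19945* and *Rpp25*), 0 with the 5 FPKM filter, 1 with all 24 libraries and 1 to 3 without single libraries. The genes higher at unadjusted p under 0.05, 398, numbered 789 with no filter, 262 at 5 FPKM, 638 with a common total and 279 (without the first WT library of CT22) to 552 (without the second ΔRRE library of CT2). The genes lower, 205, numbered 514 with no filter, 110 at 5 FPKM, 141 with a common total and 148 to 230 without single libraries. Interaction calls, 0, numbered 4 with 1 FPKM added, 63 with no filter and 0 to 3 without single libraries. Calls in the test against the other time points, 2, numbered 1 with 1 FPKM added, 15 with no filter, 1 at 5 FPKM, 1 after median ratios, 1 without CT14 and 1 to 4 without single libraries. Where a cause of these moves is not the number of genes or libraries tested, it was not tested.

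The replicate block paired libraries of the same time point and replicate number. It left 1 called gene (*Arntl*, -1.74, adjusted p = 0.0382) and 1 gene in the test against the other time points, and *Lrrc8d* had an adjusted p of 0.05615. Same-numbered deviations correlated at -0.05 at CT22 and 0.21 at CT2, across genes, and between -0.12 and 0.20 at the other time points, so the numbers were not taken to pair the libraries.

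Of 1040 values of 97 named genes besides *Arntl* under alternatives other than leaving out a library, 1037 had the same direction. None was newly called. In this balanced design other filters, priors, the replicate block, all 24 libraries or no time term leave a fold change as it was. Only other constants and scalings could turn a direction, so most of the 1037 were fixed in advance. The 3 that turned were near 0: *Gys2* (-0.019) after median ratios, and *Gm21981* (0.0035) and *Zfp595* (0.028) with a common total. Without single libraries 23 genes with small effects crossed 0. The ranges were *Clock* -0.066 to 0.21, *Per3* -0.37 to 0.082, *Cry1* -0.092 to 0.32, *Nr1d1* -0.55 to 0.40, *Nr1d2* -0.18 to 0.68, *Hlf* -0.15 to 0.14, *Bhlhe40* -0.33 to 0.23, *Nampt* -0.19 to 0.028 and *Gys2* -0.014 to 0.076. They were *Gm21981* -0.27 to 0.15, *Zfp595* -0.13 to 0.11, *Gm34654* -0.14 to 0.74, *Elovl6* -0.033 to 0.16, *Acaca* -0.044 to 0.16, *Scd1* -0.26 to 0.14, *Hp* -0.35 to 0.21, *Rbm3* -0.037 to 0.16 and *Alb* -0.13 to 0.0030. For markers they were *Cd5l* -0.52 to 0.25, *Adgre1* -0.45 to 0.40, *C1qc* -0.36 to 0.42, *Clec4f* -0.35 to 0.32 and *Cela1* -0.14 to 0.028. The constant before the logarithm understates differences of genes near 0.1 FPKM. With 2 libraries per group and unknown absolute depth, differences within the spread of the groups were not detectable.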
